A study of Homo sapiens with 6 samples.

Results

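The genes described here encode glycosyltransferases, the enzymes that build the sugar chains of glycoproteins, glycolipids and proteoglycans as these pass through the endoplasmic reticulum and the Golgi apparatus. They were chosen by gene symbol alone, as the numbered members of the GALNT, MGAT, B3GALT, B4GALT, B3GNT, GCNT, ST3GAL, ST6GAL, ST6GALNAC and FUT families together with C1GALT1, POFUT, POGLUT, POMT and POMGNT genes and the Fringe genes LFNG, MFNG and RFNG. This rule found 72 of the 21961 gene symbols in the deposited tables. RNA was sequenced from HaCaT, an immortalised human keratinocyte line, in 3 libraries titled mod and 3 titled Nvs. The mod libraries are labelled UV-induced. The Nvs libraries carry a control label, while the design text of the series describes HaCaT cells irradiated with UVB, alone or with an added treatment named BVNV, and the title names exosome-like nanovesicles of beet (Beta vulgaris). By the design text both groups share the UVB irradiation; by the Nvs label they do not, and no dose or time was used here. The groups are therefore called mod and Nvs, and every difference is Nvs against mod. The replicates are not said to come from separate cultures, so a p-value here covers the spread among libraries, part or all of which may be technical.

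As background, each of these enzymes moves a sugar from an activated donor, a nucleotide sugar or dolichol phosphate mannose, to a growing chain, and the order of enzymes along the secretory route shapes the glycan that reaches the cell surface. GALNT enzymes start mucin-type O-glycans, MGAT enzymes set the number of N-glycan antennae, galactosyl- and N-acetylglucosaminyltransferases lengthen chains, and sialyl- and fucosyltransferases cap them. The POFUT, POGLUT, POMT and POMGNT2 proteins act in the endoplasmic reticulum and not in the Golgi, on folded repeats such as those of Notch or on dystroglycan. In keratinocytes such glycans lie on integrins, cadherins, growth factor receptors and Notch.

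The depth of a library was 45637046 to 51369628 counts in the mod group and 41120058 to 44080808 counts in the Nvs group. Mitochondrially encoded transcripts held 29.8 to 31.4% of these counts in mod and 51.8 to 53.3% in Nvs, which leaves fewer counts for all nuclear genes in Nvs. Libraries were scaled by TMM, a method that sets the typical gene to no change. Without it, by library total alone, the median of all tested genes moved by -0.77 on the log2 scale, so each rise or fall below is relative to the typical gene. All 12 keratinocyte markers had a mean above 1 CPM, a count scaled to a common library size, with a summed level of 20446 to 22223 CPM in mod and 26119 to 28437 CPM in Nvs. They did not move together: 4 of the 12 rose, among them KRT14 (0.63), SFN (1.14) and KRT10 (1.17), and 5 fell, among them ITGA6 (-0.80) and CDH1 (-0.70). The summed markers of fibroblasts (5 of 8 in the table) stayed at 8.57 to 12.1 CPM, those of melanocytes (5 of 7) at 3.85 to 6.08 CPM, and those of leukocytes and endothelium (7 of 8) at 2.21 to 4.01 CPM over the 6 libraries; the part of other cell types or of the mitochondrial share in the results was not tested.

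Most of the glycosyltransferase genes that changed were lower in Nvs. Of the 62 that had enough counts to be tested, 24 fell, 7 rose and 31 did not pass the test, which was edgeR's quasi-likelihood test at a Benjamini-Hochberg adjusted p under 0.05 over all 14617 tested genes. Among all tested genes, 20.5% fell and 22.8% rose (43.3% called in all), against 38.7% and 11.3% of the glycosyltransferase genes. Their median log2 fold change was -0.34, and that of all tested genes was -0.01. By library total 54 fell and 0 rose, with a median of -1.10 against -0.77 for all genes, and there 68.0% of all genes fell and 4.03% rose (72.0% called), so the count of rises holds only relative to the typical gene. The rises numbered 3 without mod replicate 2 and 3 without mod replicate 3, and 2 with the trend of fold change with gene span removed. The 72 genes together took 0.256, 0.260 and 0.258% of the nuclear counts in the mod libraries and 0.184, 0.187 and 0.179% in the Nvs libraries. All 3 Nvs libraries lay below all 3 mod libraries in that share. The share needs no TMM factor, but it is relative to the nuclear total. Its size therefore also depends on changes in abundant nuclear genes. In bulk RNA, fewer cells expressing a gene and less of its RNA per cell cannot be told apart.

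The remaining 10 genes were too low to test, with 3 to 74 counts over all 6 libraries. They were GALNT4, GCNT3, GCNT7, MGAT3, MGAT5B, B3GALT1, B3GALT2, B3GNT7, FUT7 and FUT9. Among the tested genes, 39 had a mean level of at least 10 CPM and 26 of these were called, whereas 5 of the 23 below 10 CPM were called. In CPM, every Nvs library lay below every mod library for 31 genes and above it for 6, against 26.7% and 27.0% of all tested genes. A fall of at least 2-fold was called for 2 genes, MGAT5 and B4GALT6, and for 3.03% of all tested genes. No glycosyltransferase gene was called with a rise of at least 2-fold.

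**Figure D1:**
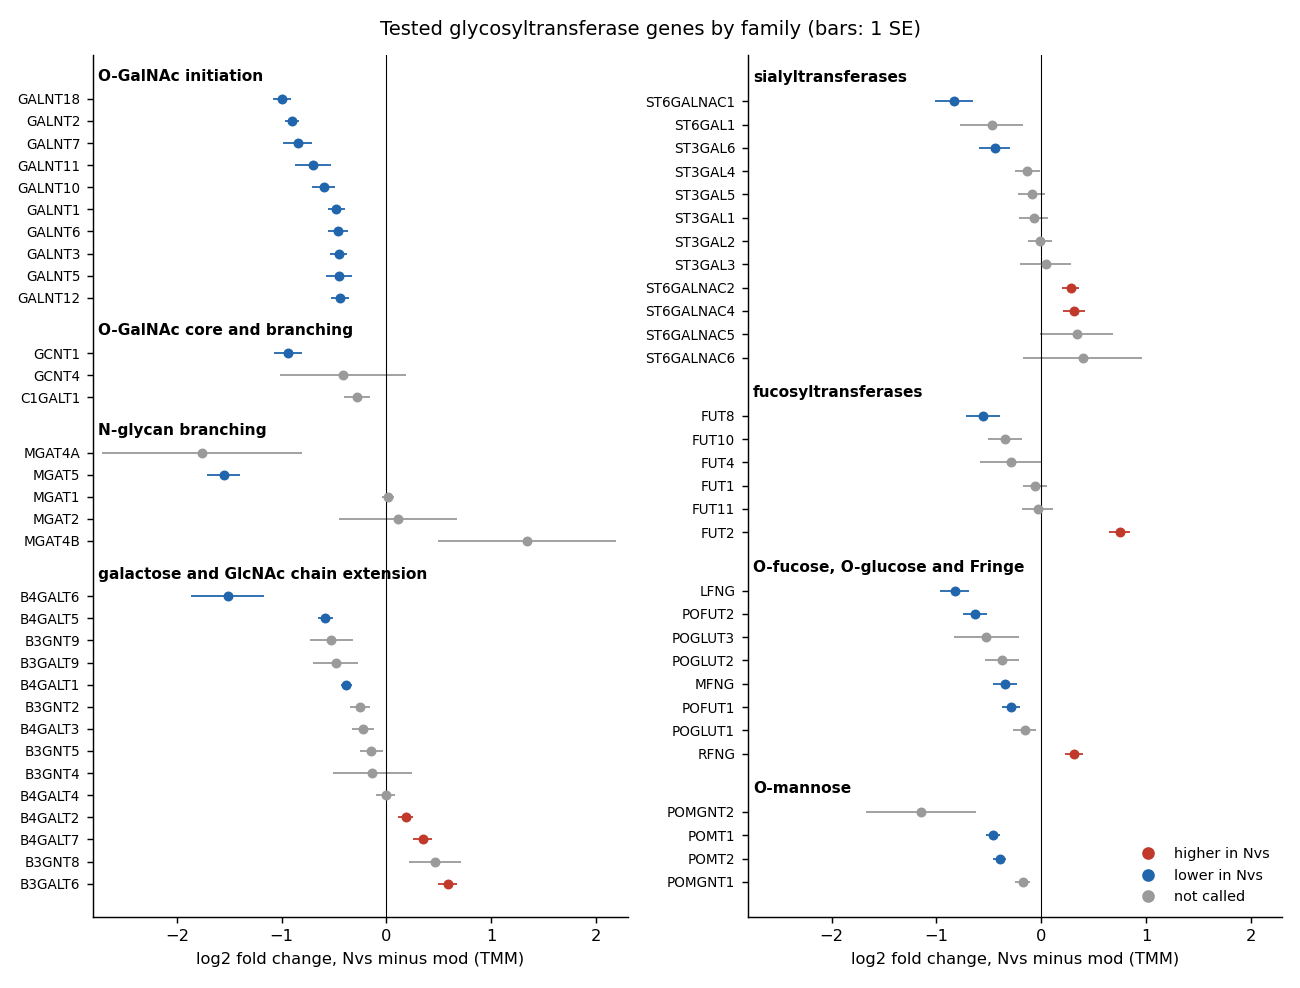
Log2 fold change (Nvs minus mod, TMM-scaled) of the 62 tested glycosyltransferase genes, grouped by family, with bars of 1 SE. Blue points were called lower, red points higher and grey points not called; all 10 GALNT genes lie left of 0, with a median of -0.54.

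Promoters are shown for the genes with the largest change in each direction that have an entry in the RefSeq promoter table (GRCh38.p14), which held 56 of the 72 genes; GALNT18 has none. Each run holds 250 bases before and 50 bases after the start of the gene, on the strand of the gene, which is the plus strand for all 4. Capitals mark matches, on either strand, to the letters ACGTGGC (the Golgi stress element, known as a binding site of TFE3), CACGTG (the E-box) or CCAAT (the CCAAT box); the longer endoplasmic reticulum stress element, which joins CCAAT to a second motif across a spacer, was searched as well. MGAT5 and GCNT1 had the largest falls among genes with an entry, and FUT2 and B3GALT6 the largest rises.
MGAT5, chr2:134119685-134119984: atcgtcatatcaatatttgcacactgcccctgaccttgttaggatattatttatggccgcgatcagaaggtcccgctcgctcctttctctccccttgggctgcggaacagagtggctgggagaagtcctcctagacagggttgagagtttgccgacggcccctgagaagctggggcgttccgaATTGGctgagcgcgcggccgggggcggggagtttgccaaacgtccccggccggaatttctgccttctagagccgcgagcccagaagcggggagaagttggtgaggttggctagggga
GCNT1, chr9:76393619-76393918: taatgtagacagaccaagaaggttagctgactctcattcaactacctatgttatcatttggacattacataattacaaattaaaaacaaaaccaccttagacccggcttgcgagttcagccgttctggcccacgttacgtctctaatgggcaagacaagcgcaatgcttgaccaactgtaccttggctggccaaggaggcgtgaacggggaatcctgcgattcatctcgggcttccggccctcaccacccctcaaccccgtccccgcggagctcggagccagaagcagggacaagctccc
FUT2, chr19:48695721-48696020: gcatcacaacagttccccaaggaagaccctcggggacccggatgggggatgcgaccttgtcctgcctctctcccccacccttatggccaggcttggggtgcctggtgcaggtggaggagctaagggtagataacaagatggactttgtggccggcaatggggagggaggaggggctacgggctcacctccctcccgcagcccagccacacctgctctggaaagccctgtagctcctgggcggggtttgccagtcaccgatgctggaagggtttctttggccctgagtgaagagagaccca
B3GALT6, chr1:1231987-1232286: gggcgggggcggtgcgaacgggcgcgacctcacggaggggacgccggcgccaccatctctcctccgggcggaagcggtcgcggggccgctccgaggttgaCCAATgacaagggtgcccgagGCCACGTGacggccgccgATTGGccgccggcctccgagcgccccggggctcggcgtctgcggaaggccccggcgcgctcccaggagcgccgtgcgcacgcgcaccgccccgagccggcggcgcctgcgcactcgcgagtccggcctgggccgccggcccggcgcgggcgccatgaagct

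The B3GALT6 promoter held 4 matches, namely CCAAT in both orientations and, between them, a Golgi stress element that overlaps an E-box. The MGAT5 promoter held 1 CCAAT match, and those of GCNT1 and FUT2 held none of these letters. The letters ACGTGGC occurred in 3.30% of the 27305 promoters of the table and in 3 of the 56 glycosyltransferase promoters. These were the promoters of B3GALT6, B4GALT2 and FUT11, of which the first 2 are among the 6 of genes that rose. Neither of these 2 genes stayed called with the trend of fold change with gene span removed. The E-box occurred in 7.43% of all promoters and in 6 of the 56, and CCAAT in 35.7% of all and in 20 of the 56. The longer endoplasmic reticulum element occurred in 0.0806% of all promoters and in 0 of the 56. The median GC content was 58.3% over all promoters of the table and 68.7% over the 49 promoters of tested glycosyltransferase genes. It was 69.2% over the 18 promoters of genes that fell, near that of the tested set, and 77.2% over the 6 of genes that rose. A match is a description of the letters and not of binding.

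The GALNT genes, whose enzymes add the first N-acetylgalactosamine to serine or threonine and so start mucin-type O-glycans, were lower in Nvs in every member that could be tested. All 10 tested members of 11 were called lower, by -0.44 to -0.995 on the log2 scale, the median being -0.54. Among all tested genes 20.5% fell. The GALNT genes are long, with a median genomic span of 114 kb against 25.3 kb for all tested genes. With the trend of fold change with gene span removed, 7 of the 10 stayed called lower and the median was -0.38. All 10 were also lower by library total, but that setting moves the typical gene down, and 68.0% of all tested genes fell there. It is therefore no separate support. Per transcript length, the most abundant were GALNT2 and GALNT18, at a mean of 18.3 and 16.8 FPKM, a level scaled by transcript length and library total, in mod and 5.80 and 5.00 FPKM in Nvs.

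GALNT2 (chromosome 1, 230057789 to 230282122; coordinates here and below are RefSeq gene spans on GRCh38.p14), a broadly expressed member with many substrates, stood at 112, 108 and 108 CPM in mod and 52.4, 63.8 and 59.2 CPM in Nvs. The lowest mod library was well above the highest Nvs library. The log2 fold change was -0.90 ± 0.07 (SE, n = 3 libraries a group), or 1.87-fold lower, with an edgeR adjusted p of 2.55e-07. Antisense transcripts annotated in GENCODE cover 23.1% of its exon bases, and the strand setting of the counting is not given in the sources used here.

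GALNT18 (chromosome 11, 11270877 to 11622005) had 46.3, 47.7 and 47.5 CPM in mod and 22.03, 26.3 and 22.6 CPM in Nvs. The 3 mod libraries lay close together and far above Nvs. The fall was -0.995 ± 0.08 on the log2 scale (edgeR adjusted p = 5.54e-07). GALNT7 (chromosome 4, 173168811 to 173323967), a follow-up enzyme that prefers peptides already carrying a sugar, had 14.9, 17.8 and 17.9 CPM in mod and 10.4, 10.1 and 7.67 CPM in Nvs. Its groups were again apart, with a log2 fold change of -0.84 ± 0.14 (edgeR adjusted p = 0.000238).

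The other called members were GALNT11 (-0.70), GALNT10 (-0.60), GALNT1 (-0.48), GALNT6 (-0.46), GALNT3 (-0.46), GALNT5 (-0.45) and GALNT12 (-0.44). GALNT3 is known for glycosylating the hormone FGF23, and GALNT10 is another follow-up enzyme. In each of these 7 genes every Nvs library was below every mod library. GALNT5 was not called without mod replicate 2 (edgeR adjusted p = 0.0536), nor with the transcript length trend removed (-0.25, adjusted p = 0.132), where 9 of the 10 genes stayed lower. Within the family the falls were unequal, which can be read without any scaling between libraries from the share of each gene in the summed FPKM of the family. GALNT2 went from 22.6% ± 1.07 to 19.3% ± 1.26 and GALNT18 from 20.8% ± 0.260 to 16.6% ± 0.815, with no overlap between the groups. GALNT12 went from 14.5% ± 0.537 to 17.1% ± 0.164, and GALNT1 and GALNT3 also took larger shares in all 3 Nvs libraries.

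Of the enzymes that act next on mucin-type chains, 1 of 3 tested genes fell and none rose, whereas 20.5% of all tested genes fell and 22.8% rose. C1GALT1, which makes the core 1 structure, had a log2 fold change of -0.28 ± 0.12 that did not pass the test (edgeR adjusted p = 0.0830), with 95% limits of -0.54 and -0.01. GCNT1 (chromosome 9, 76393869 to 76507416), which adds the core 2 branch to core 1, had 26.6, 28.2 and 26.3 CPM in mod and 17.5, 13.1 and 11.7 CPM in Nvs. The Nvs libraries were all lower and more spread than the mod libraries. The fall was -0.94 ± 0.13 (edgeR adjusted p = 6.45e-05). Within each library, GCNT1 had 163 ± 17.6 counts per 100 counts of C1GALT1 in mod and 103 ± 27.6 in Nvs, a ratio chosen after the values were seen, as were the other ratios of counts given here (9 in all were computed). GCNT4, at under 1 CPM, was not called.

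**Figure D2:**
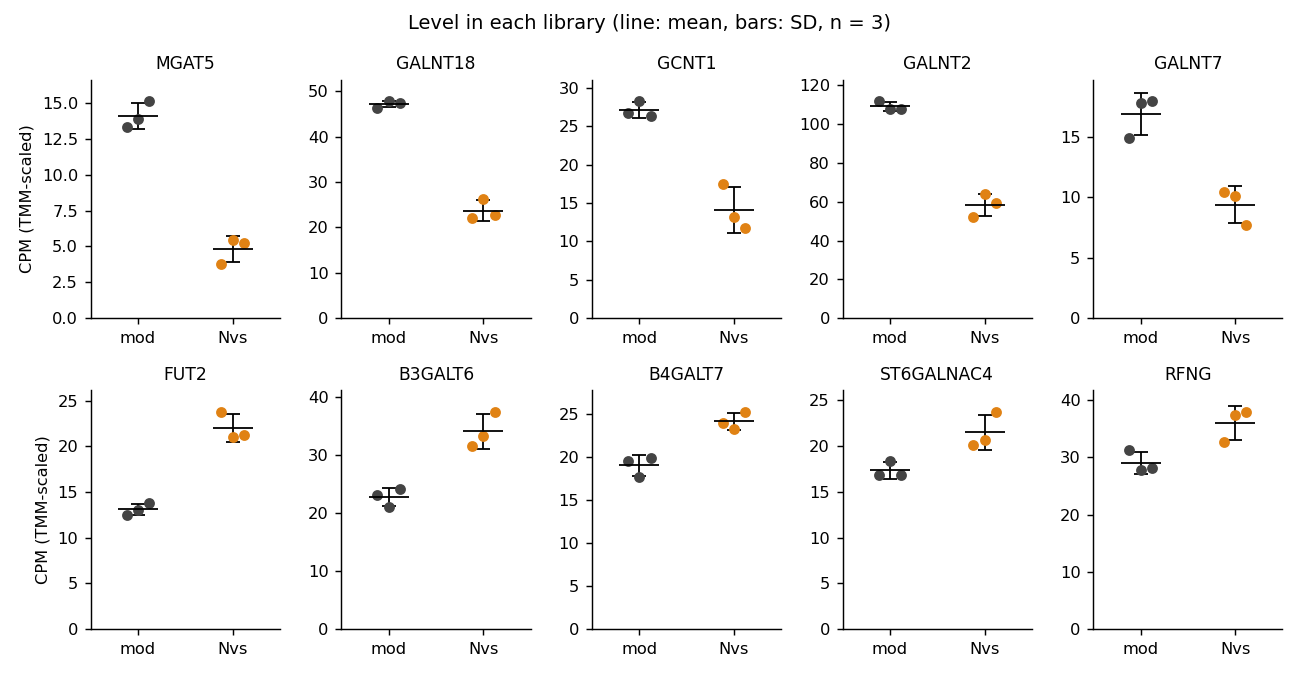
Level in each library (TMM-scaled CPM, linear axis from 0) of the 5 called genes with the largest fall (top row) and the largest rise (bottom row) among those with a mean of at least 2 CPM, which leaves out B4GALT6, with the mean and SD of 3 libraries. The groups do not overlap in any panel; MGAT5 goes from a mean of 14.1 to 4.81 CPM and FUT2 from 13.1 to 21.99 CPM.

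In the N-glycan branching family MGAT5 fell, and the remaining 4 tested genes did not pass the test. MGAT5 (chromosome 2, 134119935 to 134454621) adds the beta-1,6 branch on which long N-glycan antennae are built. It had 13.3, 13.9 and 15.1 CPM in mod and 3.75, 5.43 and 5.24 CPM in Nvs, from 886 to 905 counts per mod library and 128 to 175 per Nvs library. The groups were far apart, with a log2 fold change of -1.55 ± 0.16, 2.93-fold lower, and an edgeR adjusted p of 3.73e-06. This was the largest fall among the 31 called genes.

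MGAT1 (chromosome 5, 180784780 to 180815616), which adds the first antenna and opens the path to complex N-glycans, is the most abundant member, at a mean of 11.9 FPKM in mod. It had 113, 103 and 102 CPM in mod and 106, 104 and 112 CPM in Nvs. The groups overlapped, with a log2 fold change of 0.02 ± 0.06 (edgeR adjusted p = 0.855) and 95% limits of -0.11 and 0.14. By library total, as for most genes, MGAT1 was lower, by -0.74, and with the transcript length trend removed it was called higher, at 0.22 (edgeR adjusted p = 0.00875). The ratio of the 2 genes within a library needs no scaling. MGAT5 had 11.8, 13.5 and 14.8 counts per 100 counts of MGAT1 in the mod libraries and 3.55, 5.23 and 4.66 in the Nvs libraries. Among the low members, MGAT2, MGAT4A and MGAT4B lay under 1 CPM on average in both groups, and the widths of their intervals allow no statement on change; for MGAT4A the 95% limits were -3.81 and 0.29. For MGAT2, 91.9% of the exon bases are also covered by an annotated gene on the opposite strand.

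The galactosyltransferases and N-acetylglucosaminyltransferases that extend chains had 3 of 14 tested genes higher and 3 lower in Nvs, although by library total 0 were higher and 12 lower. At 21.4% in each direction, these shares are near those of all tested genes, 22.8% higher and 20.5% lower. The enzymes that rose include both galactosyltransferases of the linker that joins glycosaminoglycans to proteoglycan core proteins. With the trend of fold change with gene span removed, neither of them stayed called. B3GALT6 (chromosome 1, 1232237 to 1235041), which adds the second galactose of this linker, had 23.2, 21.1 and 24.1 CPM in mod and 31.7, 33.3 and 37.4 CPM in Nvs. All Nvs libraries were above all mod libraries. The log2 fold change was 0.58 ± 0.09 (edgeR adjusted p = 0.000181), and -0.18 by library total.

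B4GALT7 (chromosome 5, 177600132 to 177610330), which adds the first galactose of the linker, had 19.5, 17.7 and 19.9 CPM in mod and 24.0, 23.3 and 25.2 CPM in Nvs. The groups were apart by a smaller distance. The log2 fold change was 0.34 ± 0.09 (edgeR adjusted p = 0.00902), -0.41 by library total, and without mod replicate 2 the adjusted p was 0.0562. The third rise, B4GALT2 at 0.18 ± 0.07, had overlapping groups and was not called without mod replicate 2, mod replicate 3, Nvs replicate 1 or Nvs replicate 3 (edgeR adjusted p = 0.0938 to 0.235).

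B4GALT1 (chromosome 9, 33104077 to 33185089), the main enzyme adding galactose to N-glycan antennae, had the highest FPKM of all 72 genes, at a mean of 25.5 in mod and 11.6 in Nvs. Its level was 96.9, 95.8 and 96.6 CPM in mod and 75.3, 76.2 and 70.4 CPM in Nvs. The mod libraries were within a narrow band, and the fall of -0.38 ± 0.05 passed the test (edgeR adjusted p = 8.09e-05). The lactosylceramide synthases B4GALT5 and B4GALT6, which open the path to most glycosphingolipids, fell by -0.59 ± 0.07 and -1.51 ± 0.35. B4GALT6 is low, at a mean of 2.56 CPM in mod and 0.892 CPM in Nvs. B3GNT2, the main initiator of poly-N-acetyllactosamine chains, did not pass the test (log2 fold change -0.25 ± 0.10, 95% limits -0.47 and -0.04, edgeR adjusted p = 0.0540). As a share of the family's summed FPKM, B3GALT6 went from 10.0% ± 0.453 to 16.1% ± 1.42 and B4GALT7 from 4.81% ± 0.193 to 6.57% ± 0.210, while B4GALT1 went from 24.3% ± 0.468 to 20.0% ± 1.09. In these 3 genes the shares of the groups did not overlap.

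Of the 12 sialyltransferases, 2 rose and 2 fell in Nvs, although by library total 0 rose and 10 fell. At 16.7% in each direction, these shares lie below those of all tested genes, 22.8% higher and 20.5% lower. By library total 68.0% of all tested genes fell. All 4 calls were lost in at least 1 alternative except that of ST6GALNAC1. The 4 genes differ in acceptor. ST6GALNAC1, which makes the sialyl-Tn antigen, fell by -0.83 ± 0.18, from a mean of 7.23 to 4.07 CPM. ST6GALNAC2 (chromosome 17, 76565377 to 76585860), which sialylates the inner sugar of O-glycans, had 24.3, 23.7 and 24.1 CPM in mod and 29.8, 27.8 and 30.02 CPM in Nvs. The groups were apart, with a log2 fold change of 0.28 ± 0.08 (edgeR adjusted p = 0.0128) and of -0.48 by library total. It was not called without mod replicate 2 or mod replicate 3 (adjusted p = 0.0554 and 0.0534), and 49.6% of its exon bases are shared with another annotated gene on the same strand.

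ST6GALNAC4 (chromosome 9, 127907886 to 127917041), which forms the disialylated core 1 structure, had 16.8, 18.4 and 16.9 CPM in mod and 20.2, 20.7 and 23.7 CPM in Nvs. The groups did not overlap, with the highest mod library close to the lowest Nvs library. The log2 fold change was 0.31 ± 0.10 (edgeR adjusted p = 0.0252), -0.45 by library total, and was not called without mod replicate 1, mod replicate 3 or Nvs replicate 3 (adjusted p = 0.0737 to 0.0992). ST3GAL6 fell by -0.45 ± 0.15 (edgeR adjusted p = 0.0291) and was not called without mod replicate 1, mod replicate 3, Nvs replicate 2 or Nvs replicate 3 (adjusted p = 0.0689 to 0.0978). With the transcript length trend removed, ST6GALNAC2, ST6GALNAC4 and ST3GAL6 were not called (edgeR adjusted p = 0.182, 0.396 and 0.0840). ST3GAL1, which caps core 1, did not pass the test (-0.07, 95% limits -0.37 and 0.23), nor did ST3GAL5, the synthase of the ganglioside GM3 (-0.09, limits -0.36 and 0.18). Their lower limits allow falls of a size like that of the called rises in the family. ST6GAL1, which adds alpha-2,6 sialic acid to N-glycans, was low, at 1.88 to 2.68 CPM in mod and 1.33 to 1.99 CPM in Nvs, and was not called. Its groups overlapped.

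Among the 6 tested fucosyltransferases, FUT2 rose and FUT8 fell in Nvs, although by library total FUT2 was flat at -0.01 and 5 of the 6 fell. The share called, 33.3%, is below the 43.3% of all tested genes. FUT2 (chromosome 19, 48695971 to 48705951), the secretor enzyme that makes the H antigen on epithelial glycans, had 12.5, 13.1 and 13.7 CPM in mod and 23.7, 21.0 and 21.3 CPM in Nvs. The groups were far apart. The log2 fold change was 0.75 ± 0.10, 1.68-fold higher, with an edgeR adjusted p of 5.26e-05, the largest rise among the 72 genes that was called. FUT1, which lies near it on the chromosome and makes the same structure, had a log2 fold change of -0.06 ± 0.11 with 95% limits of -0.30 and 0.18.

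FUT8, the sole enzyme of N-glycan core fucosylation, fell by -0.55 ± 0.16 (edgeR adjusted p = 0.0138), from a mean of 8.33 to 5.68 CPM, and was not called without mod replicate 2 (adjusted p = 0.0629). With the trend of fold change with gene span removed it was -0.11 (edgeR adjusted p = 0.634). Within a library, FUT2 had 156, 145 and 173 counts per 100 counts of FUT8 in mod and 358, 423 and 390 in Nvs. Per 100 counts of FUT1 it had 95.4 ± 10.3 in mod and 166 ± 16.2 in Nvs. FUT2 thus made up 32.2% ± 2.14 of the family's summed FPKM in mod and 47.2% ± 1.18 in Nvs, and the groups did not overlap in any of these 3 measures. FUT4, FUT10 and FUT11 did not pass the test.

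**Figure D3:**
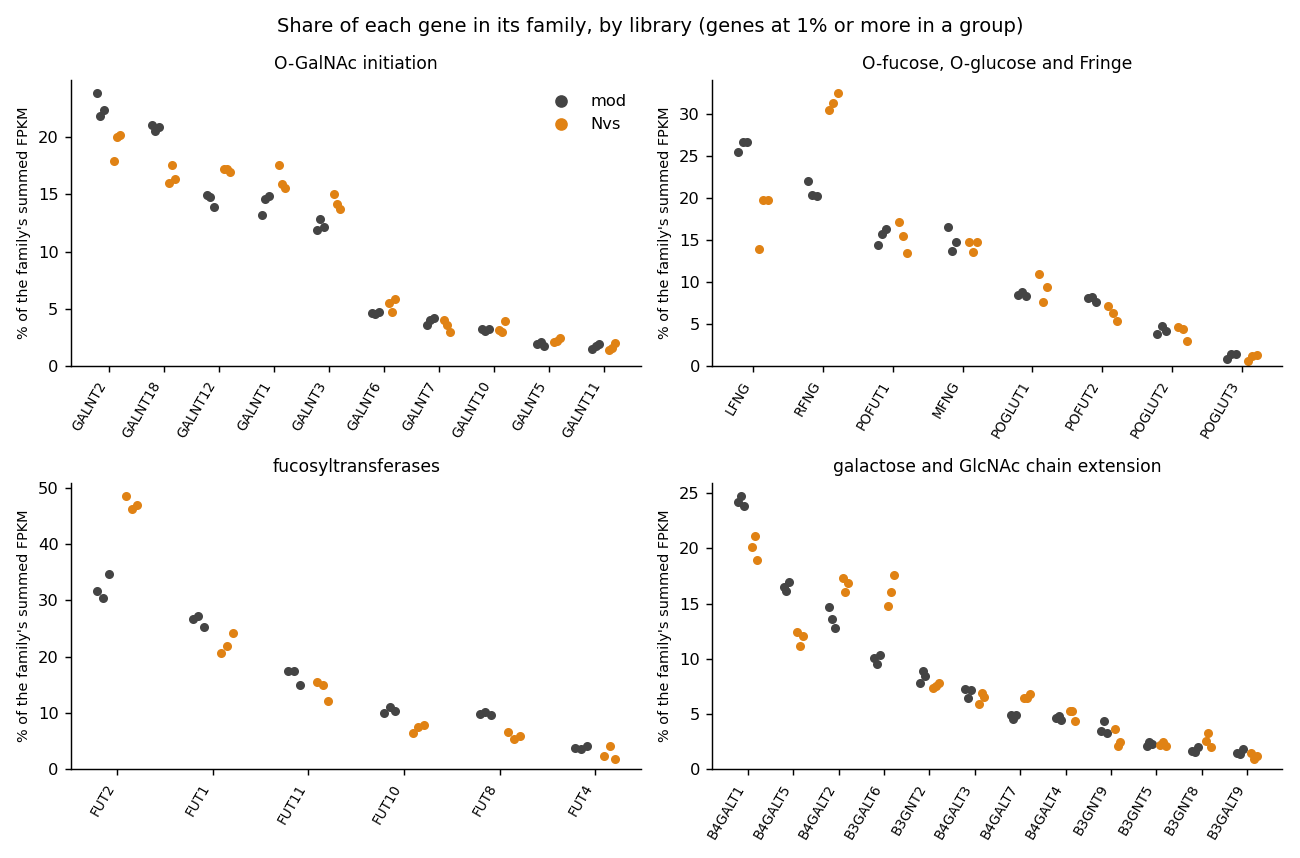
Share of each gene in the summed FPKM of its family, in percent and by library, for 4 families (genes at 1% or more of the family in a group). Grey points are mod and orange points Nvs; FUT2 goes from 32.2% to 47.2%, RFNG from 20.9% to 31.5% and LFNG from 26.3% to 17.9%.

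Of the 8 enzymes that modify Notch and thrombospondin repeats, 4 fell and 1 rose, whereas 20.5% of all tested genes fell and 22.8% rose. The 1 that rose turned negative by library total. Without mod replicate 3, 2 of the 8 enzymes were lower, and with the transcript length trend removed 3 were. POFUT1, which puts O-fucose on the epidermal growth factor-like repeats of Notch, fell by -0.29 ± 0.09 and POFUT2, its counterpart for thrombospondin repeats, by -0.63 ± 0.11. POFUT1 was not called without mod replicate 3 or Nvs replicate 3 (edgeR adjusted p = 0.0641 and 0.0548), nor with the transcript length trend removed (-0.18, adjusted p = 0.112). The O-glucose enzymes POGLUT1, POGLUT2 and POGLUT3 gave -0.16, -0.38 and -0.52, and none of the 3 passed the test.

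The 3 Fringe genes, whose enzymes add N-acetylglucosamine to the O-fucose of Notch and so alter its response to ligands, did not move together. LFNG fell from 32.3, 32.3 and 32.9 CPM in mod to 13.4, 21.1 and 20.6 CPM in Nvs. Its Nvs libraries were all lower, Nvs replicate 1 the most, and the log2 fold change was -0.83 ± 0.14 (edgeR adjusted p = 0.000295). RFNG (chromosome 17, 82047902 to 82051811) had 31.3, 27.7 and 28.1 CPM in mod and 32.6, 37.4 and 37.9 CPM in Nvs. The highest mod library lay just under the lowest Nvs library, with a log2 fold change of 0.31 ± 0.09 (edgeR adjusted p = 0.0107) and of -0.45 by library total. It was not called without mod replicate 2 or mod replicate 3 (adjusted p = 0.0600 and 0.0574). MFNG fell by -0.34 ± 0.12 and was not called without mod replicate 1, mod replicate 3 or Nvs replicate 1 (edgeR adjusted p = 0.0607 to 0.136). Within a library, LFNG had 103, 117 and 117 counts per 100 counts of RFNG in mod and 40.97, 56.3 and 54.2 in Nvs. All Nvs libraries were below all mod libraries in this ratio.

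Of the O-mannose enzymes, which start the glycan by which dystroglycan binds laminin, 2 of 4 fell and none rose. Among all tested genes 20.5% fell and 22.8% rose. POMT1 (chromosome 9, 131502918 to 131523799), which with POMT2 forms the enzyme that adds the first mannose, had 66.2, 61.9 and 63.3 CPM in mod and 45.8, 43.5 and 49.5 CPM in Nvs. The groups were well apart, with a log2 fold change of -0.46 ± 0.07 (edgeR adjusted p = 8.18e-05). POMT2 fell by nearly as much, -0.40 ± 0.06 (edgeR adjusted p = 0.00018). POMGNT1, which extends the mannose in the Golgi, had -0.18 ± 0.07 and did not pass the test (adjusted p = 0.0615). POMGNT2 was under 1 CPM in both groups and was not called.

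**Figure D4:**
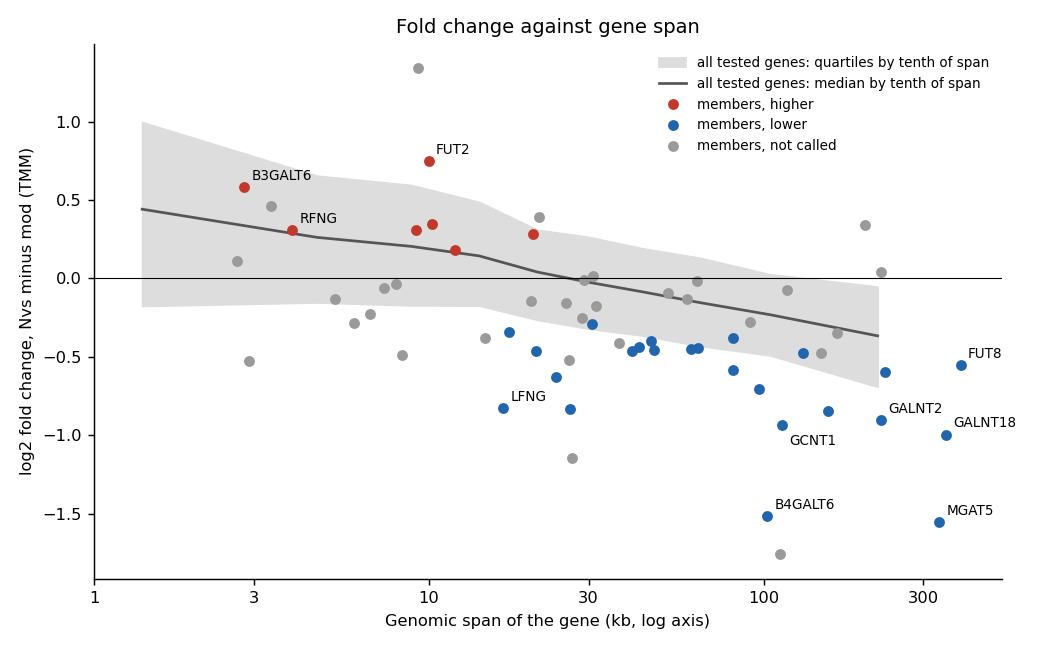
Log2 fold change (Nvs minus mod) of the 62 tested genes against the genomic span of each gene (kb, log axis). The line and the grey band are the median and the quartiles of all tested genes in bins of equal gene number by span; the called rises lie among spans of 2.81 to 20.5 kb and the called falls among spans of 16.6 to 387 kb.

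The direction of change went with the length of the gene. The 24 genes that fell had a median genomic span of 72.3 kb, the 7 that rose one of 9.98 kb, and all tested genes one of 25.3 kb. Of the 15 glycosyltransferase genes over 100 kb, 9 fell and 0 rose, and of the 19 under 20 kb, 2 fell and 6 rose. Over all tested genes of any span, 20.5% fell and 22.8% rose. The shares of all genes within these span classes were not computed. Across the 62 genes the Spearman correlation of fold change with span was -0.51, and across all tested genes it was -0.35; genes of 1 fit share libraries and are not independent replicates. Over all genes, the median log2 fold change was 0.44 in the 1454 genes with the shortest spans and -0.37 in the 1454 with the longest.

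When the trend with span over all genes was removed from the fit, 19 of the 24 falls and 2 of the 7 rises stayed called, and in all 23 glycosyltransferase genes were lower and 2 higher, against 17.6% and 20.6% of all genes (38.2% called). The rises that stayed were FUT2 (log2 fold change 0.56, edgeR adjusted p = 0.000721) and ST6GALNAC2 (0.23, adjusted p = 0.0369). RFNG, B4GALT2, B4GALT7, ST6GALNAC4 and B3GALT6 were no longer called, the last at 0.22 (edgeR adjusted p = 0.0721). MGAT5 remained lower by -1.13, LFNG by -0.92, GCNT1 by -0.69, GALNT18 by -0.57 and GALNT2 by -0.54. In the GALNT family 7 of 10 stayed called, and GALNT1, GALNT5 and GALNT10 did not. FUT8 has the longest span of the tested set, 387 kb, and was no longer called.

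Among genes that serve these enzymes, 28 belonged to nucleotide sugar synthesis. Of these 28 tested genes of nucleotide sugar synthesis, 7 rose and 5 fell (0 and 21 by library total), with a median of 0.09. The share called, 42.9%, is near that of all tested genes, 43.3%. NANS, which makes the phosphate form of sialic acid, rose by 0.86 ± 0.06, and DPM2, a subunit that supports the synthesis of dolichol phosphate mannose, by 0.85 ± 0.08. FCSK, the fucose salvage kinase, fell by -0.77 ± 0.11 and UXS1, which makes UDP-xylose, by -0.67 ± 0.12. Of 12 nucleotide sugar transporters, 1 rose (SLC35A4, 0.27 ± 0.09) and 3 fell, among them SLC35D1 (-0.92 ± 0.12) and SLC35B2, the carrier of the sulfate donor PAPS (-0.40 ± 0.07). Of 5 Golgi mannosidases, which trim N-glycans, 2 fell, MAN2A1 (-0.56 ± 0.10) and MAN1B1 (-0.23 ± 0.05), and 0 rose. For comparison, 20.5% of all tested genes fell and 22.8% rose. Neither the transporters nor the mannosidases had a called share above the 43.3% of all tested genes.

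Among 22 tested genes of glycosaminoglycan synthesis, 11 fell and 1 rose. The one that rose, B3GAT3 (0.35 ± 0.09), adds the glucuronic acid that follows the galactoses of B4GALT7 and B3GALT6 in the linker, and it was -0.41 by library total. With the span trend removed B3GAT3 was 0.13 and not called (edgeR adjusted p = 0.321). XYLT2, which starts the same linker, fell by -0.62 ± 0.07 (edgeR adjusted p = 9.67e-06). EXT2, a subunit of the heparan sulfate polymerase, fell by -0.76 ± 0.06 and HS2ST1, a heparan sulfate 2-O-sulfotransferase, by -0.98 ± 0.11. Of 16 other sugar transferases, 2 rose and 7 fell (12.5% and 43.75%, against 22.8% and 20.5% of all tested genes). RXYLT1, which takes part in building the distal dystroglycan chain, rose by 0.65 ± 0.23 (-0.11 by library total), whereas the O-mannose kinase POMK fell by -0.53 ± 0.07 and EOGT, which puts N-acetylglucosamine on Notch repeats, by -1.25 ± 0.17.

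Of 19 genes of Golgi trafficking and pH, 1 rose (GOLPH3, a retention factor of Golgi enzymes, 0.25 ± 0.06) and 6 fell, among them the tether GOLGB1 (-0.31 ± 0.05) and the zinc transporter SLC39A9 (-0.40 ± 0.08). The share called, 36.8%, is below the 43.3% of all tested genes. With the span trend removed GOLGB1 was -0.11 and not called (edgeR adjusted p = 0.103). Of 9 tested acceptors and targets of the Notch and dystroglycan enzymes, 5 fell and 1 rose (66.7% called). DAG1, which encodes dystroglycan, fell by -0.73 ± 0.05 and the Notch ligand JAG2 by -0.70 ± 0.06, while the Notch target HES1 rose by 1.25 ± 0.06, and by 0.49 by library total.

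**Figure D5:**
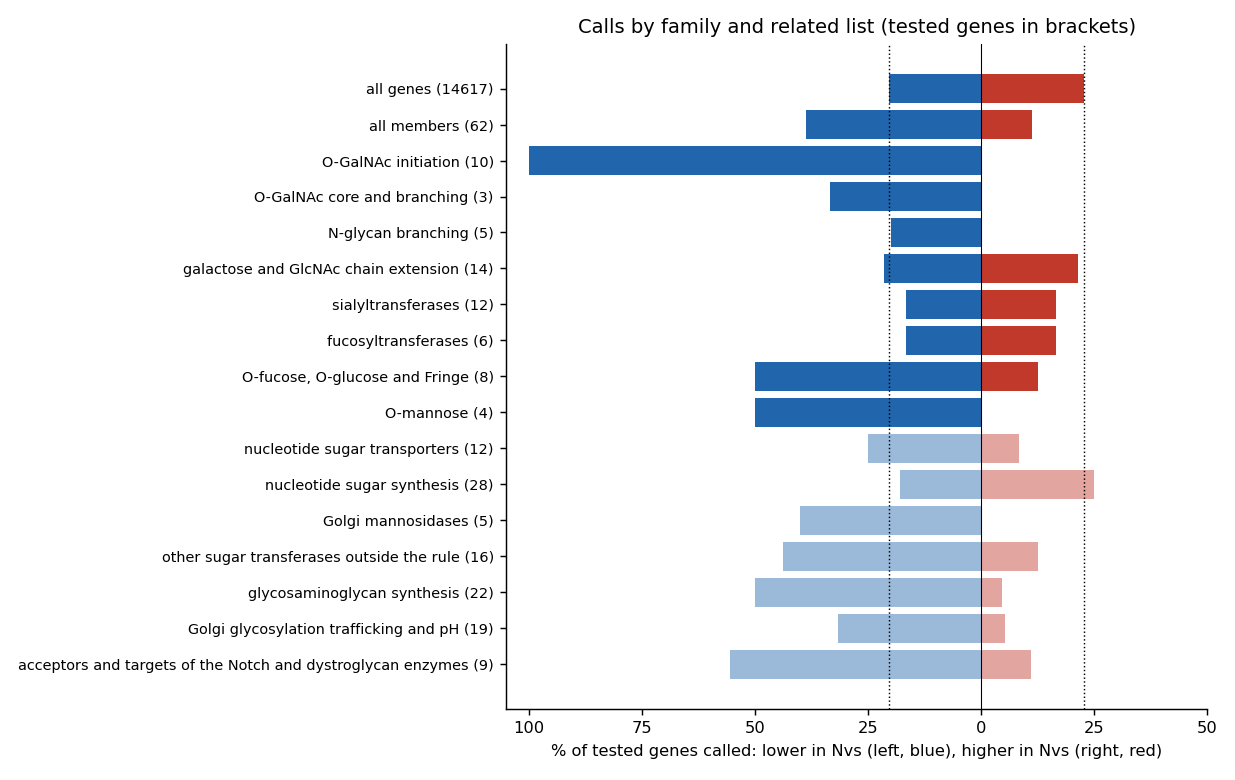
Share of tested genes called lower (left, blue) or higher (right, red) in Nvs, in percent, for all genes, the glycosyltransferase genes, their families (solid) and related lists (pale), with the number tested in brackets. Dotted lines mark the shares of all tested genes, 20.5% lower and 22.8% higher; the GALNT family is at 100% lower.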

How the data were processed

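Poly(A) RNA from TRIzol extracts was, per the labels' protocols, made into dUTP stranded libraries and read from both ends. The authors deposited gene counts (whole reads per symbol, not normalised) and, for the same symbols, FPKM values, scaled by transcript length and library total. Per the submitters' processing notes the build is hg38; the sources used here name no aligner, counter, annotation or strand setting. Groups were taken from the titles. Counts were fitted in R 4.3.3 with edgeR 4.0.16: filterByExpr (minimum count 10, total 15), TMM, and the quasi-likelihood F test of Nvs against mod with no other term, with Benjamini-Hochberg adjustment over 14617 genes and calls at an adjusted p under 0.05. The SE is the size of the fold change over the root of F, and 95% limits use the moderated degrees of freedom. An earlier version of the fit kept library totals from before the filter. It is an alternative added after the data were seen, and it called the same 7 rises and 24 falls. CPM values are TMM-scaled. Shares use the deposited FPKM.

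Gene spans and coordinates came from RefSeq (GRCh38.p14), which held all 72 genes; exon overlaps came from GENCODE release 29. Trends with span or transcript length were fitted by loess (span 0.3) and removed as an offset. The members and lists were chosen with earlier results of these data known, so no list was tested. Values per library are given for the 5 largest called changes in each direction with a mean of at least 2 CPM and for the member with the highest FPKM in each family. In a related list, results are given for up to 2 called genes per direction by adjusted p. LFNG and XYLT2 were added after their values were seen. The result of 1 gene that this rule names in a related list is not reported here. Alternatives were library total, DESeq2 1.42.0 (its size factors, and its Wald test), nuclear counts alone, no filter and a stricter one (50 counts in 3 libraries), limma 3.58.1 on log2(FPKM + 0.1) or log2(FPKM + 1), the length trends, leaving out each library, and the replicate number as a block. The fit was tested on simulated data, where its first pass fell 1 gene short of the recovery limit set for it. That limit was then lowered by more than this shortfall, with the outcome known, so meeting it is no independent check. Figures were drawn with matplotlib 3.10.9.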

Additional observations from a re-analysis of the deposited data

How the results depend on the processing

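With DESeq2 size factors, nuclear counts alone, DESeq2's Wald test or the stricter filter, the 24 falls stayed called, and of the 7 rises B4GALT2 alone was lost, with nuclear counts and with the Wald test; with the stricter filter 5 chain extension genes were lower. Without a filter B4GALT2 was lost, the median was -0.39 and MGAT1 was -0.0092. By library total, 0 genes rose and 54 fell (median -1.10), and 589 of all genes rose and 9938 fell. On FPKM with pseudocount 0.1, pseudocount 1 and pseudocount 0.1 without filter, 0 rose and 50, 50 and 51 fell, the medians were -1.0005, -0.65 and -0.85, and of all genes 608, 604 and 559 rose and 9800, 9802 and 9774 fell. In these 4 settings, rises numbered 0 in the chain extension, sialyltransferase, fucosyltransferase and Notch families. Falls by library total and on FPKM were 12 and 11 for chain extension, 10 and 9 for sialyltransferases, 5 and 5 for fucosyltransferases, 8 and 8 for the Notch enzymes, 2 and 2 for core and branching, 3 and 2 for N-glycan branching, and 4 for O-mannose by library total and on FPKM without filter.

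The genes that rose turned negative by library total, on FPKM with pseudocount 0.1 (with or without filter) and with pseudocount 1. In that order the log2 values were -0.18, -0.17 and -0.16 for B3GALT6; -0.58, -0.57 and -0.53 for B4GALT2; -0.41, -0.40 and -0.34 for B4GALT7; -0.0108, -0.0109 and -0.0091 for FUT2; -0.45, -0.44 and -0.40 for RFNG; -0.48, -0.47 and -0.43 for ST6GALNAC2; and -0.45, -0.44 and -0.39 for ST6GALNAC4. MGAT1, not called with TMM, gave -0.74, -0.73 and -0.67. FPKM is scaled by library total, so these settings are not independent.

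With the span trend removed the median was -0.26 and 2 genes rose; chain extension had 0 higher and 6 lower, sialyltransferases 1 and 1, the Notch enzymes 0 higher, and fucosyltransferases 0 lower. With the transcript length trend removed the median was -0.25; chain extension had 5 lower, sialyltransferases 0 higher and 1 lower, and N-glycan branching 1 higher, MGAT1. The cause of these changes was not tested.

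Leaving out each library in turn gave 3 to 7 genes higher and 21 to 25 lower, with medians of -0.39 to -0.31. The ranges were 9 to 10 lower for GALNT, 1 to 3 higher and 3 to 5 lower for chain extension, 0 to 2 higher and 1 to 2 lower for sialyltransferases, 0 to 1 lower for fucosyltransferases, 0 to 1 higher and 2 to 5 lower for the Notch enzymes, and 1 to 2 lower for core and branching. The lowest count of rises, 3, came without mod replicate 2 and without mod replicate 3. MGAT1 ranged from -0.0242 to 0.0568, below 0 without mod replicate 2 (-0.0165), mod replicate 3 (-0.0242) or Nvs replicate 3 (-0.0185).

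Same-numbered libraries did not deviate together (correlations of -0.018, -0.0077 and -0.023), so no pairing by number was seen. With 3 libraries a group, this cannot show whether they were prepared as pairs. With the replicate number as a block, 6 genes rose and 25 fell, and B4GALT2 was the call lost (adjusted p = 0.0591).

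Depth limits the 23 genes under 10 CPM most, of which 5 were called. The labels name no spike-in, so a change in RNA per cell cannot be told apart from the shifts above.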
